A study of Mus musculus with 6 samples.

Results

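The 8 genes described here belong to the glucocorticoid response: the receptors Nr3c1 and Nr3c2, the cochaperone Fkbp5, the targets Tsc22d3, Sgk1, Zbtb16 and Ddit4, and the steroid-activating enzyme Hsd11b1. They were taken as a fixed list of symbols, and every array probe whose transcript accession maps to one of them was used, which gave 13 probes of 56605 and 8 genes of the 23462 that could be named. Microglia were isolated from brain by magnetic selection for the surface receptor P2RY12 from male mice aged 10 weeks on a C57BL/6 background, and each sample was hybridized to a 1-colour expression array. The 3 control samples came from PGC-1αf/f littermates, which carry a PGC-1α allele controlled by loxP sites and linked to eGFP, and no Cre. The 3 mPGC-1α samples came from mice with the same allele plus a tamoxifen-inducible Cre expressed from the Cx3cr1 locus, which is active in microglia and also in other Cx3cr1-expressing cells. The study gave tamoxifen to both genotypes in its imaging and stroke experiments, and its methods do not state the treatment of the array samples separately. Whether a sample was 1 mouse or a pool is not given in the sources used here, so the spread between samples may be partly technical.

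Glucocorticoids such as corticosterone cross the cell membrane and bind the glucocorticoid receptor (Nr3c1) or, with higher affinity, the mineralocorticoid receptor (Nr3c2). In the cytosol the receptor is held by the chaperone HSP90 and its partners, among them FKBP5, which lowers the affinity for hormone. Once hormone is bound, the receptor enters the nucleus and binds DNA at the glucocorticoid response element, inducing some genes and repressing many inflammatory ones. HSD11B1 regenerates active hormone inside the cell from its inactive 11-keto form. Microglia express the glucocorticoid receptor, and glucocorticoids are known to restrain their inflammatory activation.

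The values below are the log2 signal of a probe minus the 75th percentile of its array, so that 0 stands for that percentile. Of 59305 spots, 27025 to 30272 were well above background on an array, and 0 were saturated. Across the 8 of 14 microglial markers with values on all arrays the mean level was 3.78 to 4.15 on every array. PGC-1αf/f replicate 3 had the lowest mean correlation with the other arrays (0.928, against 0.962 to 0.972), and none of 7 probes for Y-linked genes was well above background on mPGC-1α replicate 3, although the labels call all mice male; on the other 5 arrays 5 or 6 were. The probe for Xist, which is transcribed from the inactive X chromosome of females, was well above background on that array and also on PGC-1αf/f replicate 2 and mPGC-1α replicate 2, which had Y-linked signal too. All PGC-1αf/f arrays lay in one row of the slide and all mPGC-1α arrays in the other, so slide row and genotype cannot be told apart. The overexpressed gene itself, Ppargc1a, was higher by 0.80 at its brighter probe and by 0.59 at the other (limma adjusted p = 0.306 and 0.445), with overlapping groups.

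No member of the list passed an adjusted p of 0.05 in limma. The share of all probes that did was 0.0792%, or 20 of 25257. Of the 7 members with a tested probe, 5 were higher and 2 lower in mPGC-1α microglia, and the median difference was 0.28, against 0.02 over 13099 tested genes, of which 53.2% were higher. That median is the value of Fkbp5, which was measured on 3 arrays, and over the alternatives it was 0.06 (after a median shift, with 4 of 7 higher) to 0.57 (without mPGC-1α replicate 2), or 0.79 over the 5 members whose probes could be averaged. Tsc22d3, Ddit4 and Hsd11b1 had an unadjusted p under 0.05 and were all higher. Without PGC-1αf/f replicate 3 all 3 stayed under 0.05, and without PGC-1αf/f replicate 1 only Ddit4 did, each taken at its brightest probe. None of these probes did without mPGC-1α replicate 1 or without mPGC-1α replicate 3, where the limma p-values of Tsc22d3, Ddit4 and Hsd11b1 were 0.0748, 0.0634 and 0.068 and 0.0509, 0.0604 and 0.0753. The second Tsc22d3 probe stayed under 0.05 whichever array was left out, with limma p-values of 0.00226 to 0.0114. Among all genes, 7.92% were higher and 5.83% lower at that level. The same 3 genes were those whose groups did not overlap, of 5 members with values on all arrays. Among 12302 genes with complete values, 12.2% lay wholly higher in mPGC-1α microglia and 10.8% wholly lower. With 3 arrays against 3, an exact permutation test of a single gene cannot give a two-sided p below 0.1.

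**Figure D1:**
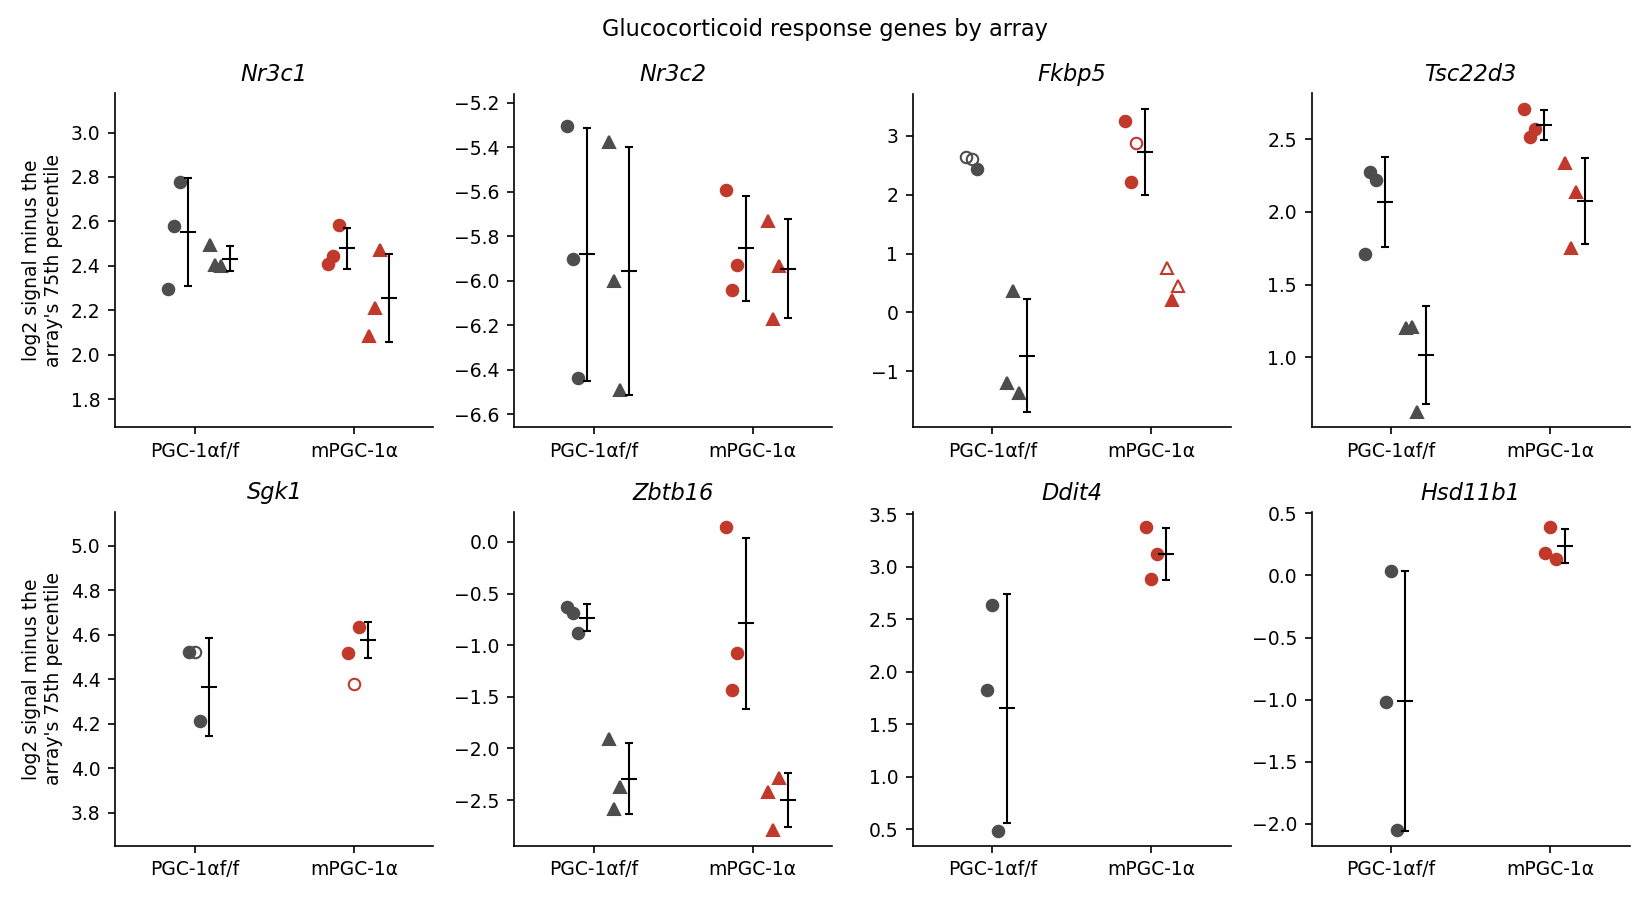
Each panel plots 1 gene, with its own vertical axis in log2 signal minus the 75th percentile of the array. Each point is 1 array, circles and triangles are the first and second probe of a gene, bars are mean ± SD of the values used, and open symbols are spots that the scanner software flagged as non-uniform and that were left out. The groups lie apart at Ddit4, at Hsd11b1 and at both Tsc22d3 probes, and the PGC-1αf/f values of Ddit4 and Hsd11b1 spread over more than those of mPGC-1α.

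Promoter sequences are printed for the members whose groups lay apart and for Sgk1, the only one of the 6 members in the promoter table with a full palindromic response element in this window. They are RefSeq sequences of the build GRCm38.p6, each with 250 bases before a transcription start and 50 from it on. The search used the hexamer AGAACA on both strands, the core ACANNNTGT, and the full element, which is the hexamer followed after 3 bases by its reverse complement. A full element thus always contains the core and the hexamer on both strands. Capitals mark every match. The Tsc22d3 start shown is the only one of its 3 with a match, and the Sgk1 start shown is the one with the full element.
Sgk1, start 5 of 6 (chr10:21993640-21993939, plus strand): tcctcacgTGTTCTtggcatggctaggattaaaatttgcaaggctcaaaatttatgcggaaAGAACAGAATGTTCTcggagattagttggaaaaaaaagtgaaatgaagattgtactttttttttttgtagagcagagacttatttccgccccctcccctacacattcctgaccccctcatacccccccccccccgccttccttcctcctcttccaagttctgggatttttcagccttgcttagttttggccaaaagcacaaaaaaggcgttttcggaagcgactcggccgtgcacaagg
Tsc22d3, start 2 of 3 (chrX:140600473-140600772, minus strand): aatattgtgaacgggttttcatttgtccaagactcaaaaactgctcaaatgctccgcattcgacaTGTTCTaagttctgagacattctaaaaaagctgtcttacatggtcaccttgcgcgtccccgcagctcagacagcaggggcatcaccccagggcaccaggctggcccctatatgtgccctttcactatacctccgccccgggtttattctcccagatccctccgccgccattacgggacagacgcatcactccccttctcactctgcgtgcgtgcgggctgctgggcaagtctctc
Ddit4 (chr10:59951721-59952020, minus strand): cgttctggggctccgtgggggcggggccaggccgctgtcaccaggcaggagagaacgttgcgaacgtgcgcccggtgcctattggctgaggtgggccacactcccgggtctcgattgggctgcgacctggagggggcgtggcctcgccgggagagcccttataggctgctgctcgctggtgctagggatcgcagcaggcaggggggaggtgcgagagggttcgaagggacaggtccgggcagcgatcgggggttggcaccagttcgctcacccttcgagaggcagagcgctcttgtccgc
Hsd11b1 (chr1:193242311-193242610, minus strand): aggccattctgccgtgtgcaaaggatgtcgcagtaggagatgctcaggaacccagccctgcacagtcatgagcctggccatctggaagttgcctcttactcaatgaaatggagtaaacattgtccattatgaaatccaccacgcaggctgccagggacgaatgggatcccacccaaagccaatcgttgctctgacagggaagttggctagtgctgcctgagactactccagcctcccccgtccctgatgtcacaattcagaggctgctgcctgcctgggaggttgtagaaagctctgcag
The table held 13 promoters for these 6 members. The full element occurred in 1 of them, with its first base at position -189 of the Sgk1 sequence shown, the first transcribed base being 0, and a further hexamer lay at -242. Of 32851 promoters in the table, 3 held the full element (0.00913%). The core occurred in 2 of the 13, both at Sgk1, and in 6.85% of all promoters. At least 1 hexamer occurred in 4 of the 13, 3 at Sgk1 and 1 at Tsc22d3 (position -185), and in 19.0% of all promoters. Ddit4 and Hsd11b1 had no match in this window, which says nothing of elements elsewhere. No binding was measured here.

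The receptors came first in the comparison. Nr3c1, the glucocorticoid receptor, gave 2.29, 2.58 and 2.78 on the control arrays, against 2.41, 2.44 and 2.58 on the mPGC-1α ones at its brighter probe (A_55_P1967885). The groups overlapped, with means of 2.55 ± 0.24 and 2.48 ± 0.09 (SD, n = 3 each). The difference was -0.07 (SE 0.16, 95% interval -0.46 to 0.31, limma adjusted p = 0.843). A second Nr3c1 probe (A_55_P2728068) gave 2.50, 2.40 and 2.40 against 2.08, 2.21 and 2.47, a difference of -0.18 (SE 0.15, limma adjusted p = 0.547). Nr3c2, the mineralocorticoid receptor, was not well above background on any of the 6 arrays at either of its probes, with values between -6.49 and -5.30, and no difference is given for it.

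Hsd11b1 gave -1.02, 0.04 and -2.05 on the control arrays, against 0.18, 0.39 and 0.14 on the mPGC-1α ones. All mPGC-1α values lay above all PGC-1αf/f values, although the gap between 0.04 and 0.14 was small beside the spread of the controls. The means were -1.01 ± 1.04 and 0.24 ± 0.14 (SD, n = 3 each). The difference was 1.25, or 2.37-fold (SE 0.48, 95% interval 0.12 to 2.37), with an unadjusted p of 0.0344 and an adjusted p of 0.272 in limma. Without PGC-1αf/f replicate 3, the lowest array, it was 0.73, and without PGC-1αf/f replicate 2 it was 1.77. Within the slide columns that held an array of each group it was 1.20 and 0.35. With array weights it was 0.67 (unadjusted p = 0.114, limma adjusted p = 0.327). H6pd, which supplies the cofactor for HSD11B1 in the endoplasmic reticulum, differed by -0.05 (SE 0.14, limma adjusted p = 0.865).

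Fkbp5 could be measured only in part, because 3 spots of its brighter probe and 2 of its other probe were flagged as non-uniform. The brighter probe (A_55_P1952379) kept 2.44 on 1 PGC-1αf/f array and 3.25 and 2.21 on 2 mPGC-1α arrays, which differ by 0.28 (SE 0.51, limma adjusted p = 0.804). With the flagged spots kept, an alternative added after seeing the data, the values were 2.63, 2.60 and 2.44 against 3.25, 2.21 and 2.88, and the difference was 0.22 (SE 0.26). The other probe (A_52_P481493) gave -1.20, 0.36 and -1.37 in PGC-1αf/f samples and kept 0.21 on 1 mPGC-1α array, a difference of 0.95 (SE 0.73, limma adjusted p = 0.537). With flagged spots kept, its mPGC-1α values were 0.76, 0.21 and 0.45, and the difference was 1.21 (SE 0.45, 95% interval 0.15 to 2.27, limma adjusted p = 0.26). Both probes had the mPGC-1α mean higher, and both had overlapping groups once all spots were used.

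Tsc22d3 encodes GILZ, a leucine zipper protein that glucocorticoids induce and that restrains NF-κB and AP-1. Its brighter probe (A_55_P1989061) gave 1.71, 2.27 and 2.22 on the control arrays, against 2.71, 2.51 and 2.57 on the mPGC-1α ones. The lowest mPGC-1α value lay above the highest control value, and the means were 2.07 ± 0.31 and 2.60 ± 0.10 (SD, n = 3 each). The difference was 0.53, or 1.44-fold (SE 0.18, 95% interval 0.09 to 0.97), with an unadjusted p of 0.024 and an adjusted p of 0.249 in limma. The second probe (A_55_P2741276) gave 1.20, 1.21 and 0.63 against 2.33, 1.75 and 2.14, again with no overlap. Its difference was larger, at 1.06 or 2.09-fold (SE 0.23, 95% interval 0.52 to 1.60), with the lowest unadjusted p of any member probe, 0.00238, and an adjusted p of 0.134 in limma. Leaving out each array in turn gave 0.35 to 0.63 at the brighter probe, lowest without PGC-1αf/f replicate 1, and 0.87 to 1.22 at the second. Within slide columns the differences were 1.00 and 0.24 at the brighter probe and 1.13 and 0.54 at the second. Of the 4 members with 2 tested probes, Tsc22d3 was the only one with both probes apart between groups.

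Ddit4 encodes REDD1, an inhibitor of mTORC1 that glucocorticoids, hypoxia and other stresses induce. It gave 1.82, 2.64 and 0.49 on the control arrays, against 3.38, 2.88 and 3.12 on the mPGC-1α ones. The mPGC-1α arrays were close together above all controls, while the controls spread over more than 2 log2 units. The means were 1.65 ± 1.09 and 3.13 ± 0.25 (SD, n = 3 each). The difference of 1.48, or 2.78-fold, was the largest among the brightest probes of the members (SE 0.50, 95% interval 0.29 to 2.66), with an unadjusted p of 0.0218 and an adjusted p of 0.242 in limma. It was 0.90 without PGC-1αf/f replicate 3, the lowest array, and 1.97 without PGC-1αf/f replicate 2. Within slide columns the difference was 1.55 and 0.24. In the deposited table without normalization between arrays it was 1.44 and passed the threshold (limma adjusted p = 0.0436). In that fit Ddit4, Hsd11b1, Nr3c1, Tsc22d3 and Zbtb16 all had an SE of 0.428, so the test did not use the spread of Ddit4 itself. That fit called 456 probes, against 20. With array weights the difference of Ddit4 was 0.764 (unadjusted p = 0.0815, limma adjusted p = 0.276).

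Sgk1, a kinase that regulates ion channels and transporters and is induced by both receptors, had 1 probe. It gave 4.52 and 4.21 on 2 PGC-1αf/f arrays and 4.52 and 4.63 on 2 mPGC-1α arrays, the other 2 spots being flagged as non-uniform. The difference was 0.21 (SE 0.20, 95% interval -0.30 to 0.72, limma adjusted p = 0.618). With all spots kept the values were 4.52, 4.52 and 4.21 against 4.52, 4.38 and 4.63, which overlap, and the difference was 0.09 (SE 0.15, 95% interval -0.26 to 0.45).

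Zbtb16 encodes the zinc finger repressor PLZF, which glucocorticoids induce strongly in many cells. It gave -0.63, -0.69 and -0.88 on the control arrays, against 0.14, -1.43 and -1.08 on the mPGC-1α ones at its brighter probe (A_55_P2024155). The mPGC-1α arrays lay on both sides of the controls. The difference was -0.06 (SE 0.38, limma adjusted p = 0.952), but -0.52 without mPGC-1α replicate 1 (unadjusted p = 0.0306, limma adjusted p = 0.384), and 0.77 and -0.74 within the slide columns. At the second probe (A_66_P119534) the values were -1.91, -2.58 and -2.38 against -2.42, -2.79 and -2.29, a difference of -0.21 (SE 0.22, limma adjusted p = 0.644), and mPGC-1α replicate 1 did not stand out there. The mean of 6 astrocyte markers was also highest on mPGC-1α replicate 1, at 1.09, against 0.01 to 0.49 on the other arrays; its part in the Zbtb16 value was not tested.

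**Figure D2:**
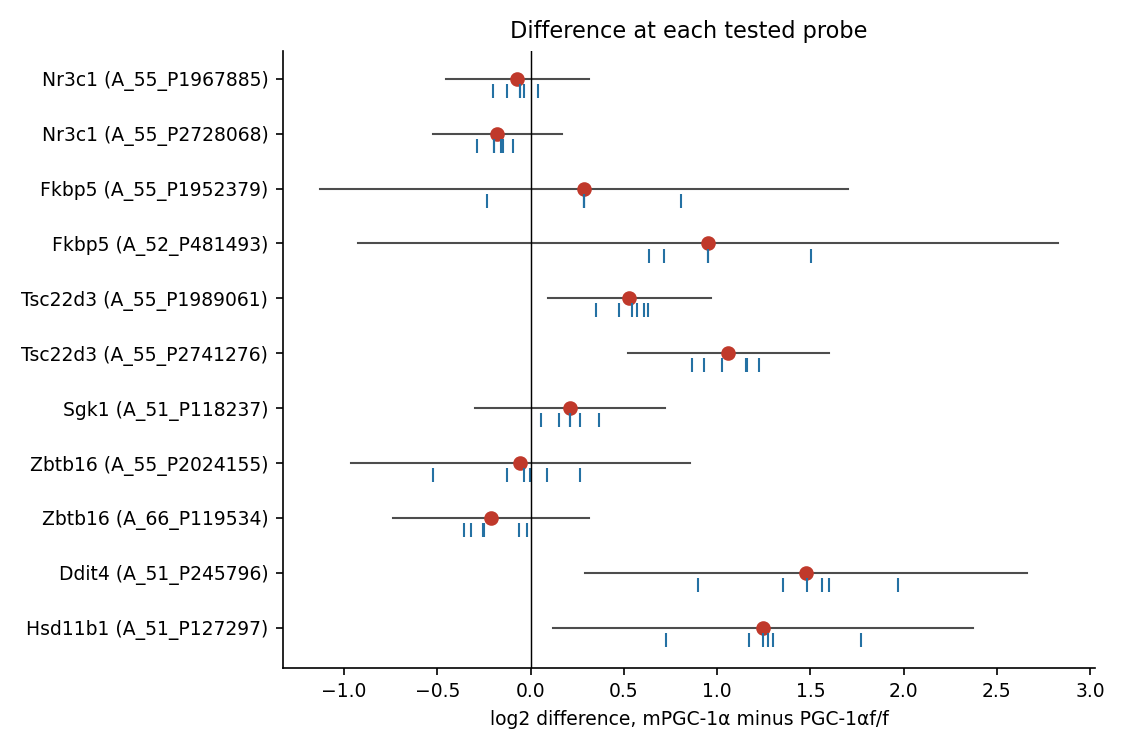
Red points are the log2 difference, mPGC-1α minus PGC-1αf/f, at each of the 11 tested probes, grey lines its 95% interval, and blue ticks the difference with each array left out in turn. The intervals of Tsc22d3, Ddit4 and Hsd11b1 lie above 0, and the ticks of Ddit4 and Hsd11b1 spread more than those of Tsc22d3.

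The members did not share one profile over the 6 arrays. Likeness was measured as the root mean square difference between profiles, each centred on its mean over the 6 arrays, and is a description that shares these arrays and their group difference. Among the 5 members with complete values, Ddit4 and Hsd11b1 were the most alike pair (0.25 log2 units), followed by Nr3c1 and Tsc22d3 (0.33). Both Ddit4 and Hsd11b1 were lowest on PGC-1αf/f replicate 3, next lowest on PGC-1αf/f replicate 1 and highest on the mPGC-1α arrays. Of 12302 genes, the 3 closest to Ddit4 were Serpinb1c (0.19), Hsd11b1 (0.25) and Plaur, the urokinase receptor (0.26). Those closest to Hsd11b1 were Pram1 (0.13), Parpbp (0.14) and Ccnb2, a mitotic cyclin (0.16). Tsc22d3 was closest to Klf13 (0.07), Zfp787 (0.09) and Spata45 (0.10), Zbtb16 to Phactr3 (0.10), Trim9 (0.12) and the astrocyte glutamate transporter Slc1a2 (0.12), and Nr3c1, which varied least, to Ints1 (0.02), Mif4gd (0.02) and Vps37b (0.03).

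Marker lists were measured on the same arrays. The mean of 16 tested blood leukocyte markers was 1.65, 2.12 and -0.71 in the controls, against 1.93, 2.22 and 2.45 in mPGC-1α samples. PGC-1αf/f replicate 3 was thus the lowest array for this list as for Ddit4 and Hsd11b1. Of the 16, 15 were higher in mPGC-1α microglia, with a median difference of 1.098, and none had an unadjusted p under 0.05. The 15 immediate-early and dissociation response genes had means, over the 12 with values on all arrays, of 0.34, 0.47 and 0.49 against 1.24, 1.40 and 1.31, with 13 of 15 higher, 8 of them at an unadjusted p under 0.05, 7 of 12 wholly higher and a median difference of 0.85. Fosb, an AP-1 subunit, was the 1 past the threshold, at 3.48 (limma adjusted p = 0.0169). It lost the call without mPGC-1α replicate 3, where 0 of all probes passed. Hspa1a and Hspa1b were not well above background on every control array and were tested through the mPGC-1α arrays. Without them 11 of 13 were higher, 6 at an unadjusted p under 0.05, 5 of 10 were wholly higher, the median was 0.42 and the means, over 10 complete genes, were 1.08, 1.26 and 1.33 against 2.01, 2.11 and 2.04. Microglial markers had a median difference of -0.18, with 12 of 14 lower, 1 at an unadjusted p under 0.05 and 2 of 8 wholly lower. The 1 was Cx3cr1 (-0.51), whose locus carries the Cre in mPGC-1α mice and not in controls. All 10 border macrophage markers were higher, with a median of 0.27, and the mean of 9 with complete values was 0.56 to 0.81 in controls, against 0.65 to 1.41. All 8 tested endothelial and mural cell markers were higher, with a median of 0.63, and the means of 7 with complete values were 0.06, -0.22 and -1.64 against -0.40, 0.08 and 0.44, again lowest on PGC-1αf/f replicate 3. Pecam1 of this list was not tested. It was well above background on 2 control arrays and 0 mPGC-1α arrays, and lay wholly lower in mPGC-1α samples. Cdh5, Rgs5 and Kcnj8, also not tested, overlapped. Of 10 oligodendrocyte markers 9 were lower, 6 at an unadjusted p under 0.05 and 7 wholly lower, with a median of -0.66. Mog and Opalin were tested only through the control arrays, and without them 7 of 8 were lower, 4 at an unadjusted p under 0.05 and 5 wholly, with a median of -0.58. The means of these 8 were 0.60, 0.64 and 1.05 against 0.34, 0.28 and 0.13. Astrocyte and neuron markers had medians of 0.03 and 0.09. In such bulk samples, more cells of a type and more RNA per cell cannot be told apart. The part of these lists in the differences of Ddit4, Hsd11b1 and Tsc22d3 was not tested; without PGC-1αf/f replicate 3 the 3 differences were 0.90, 0.73 and 0.61.

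**Figure D3:**
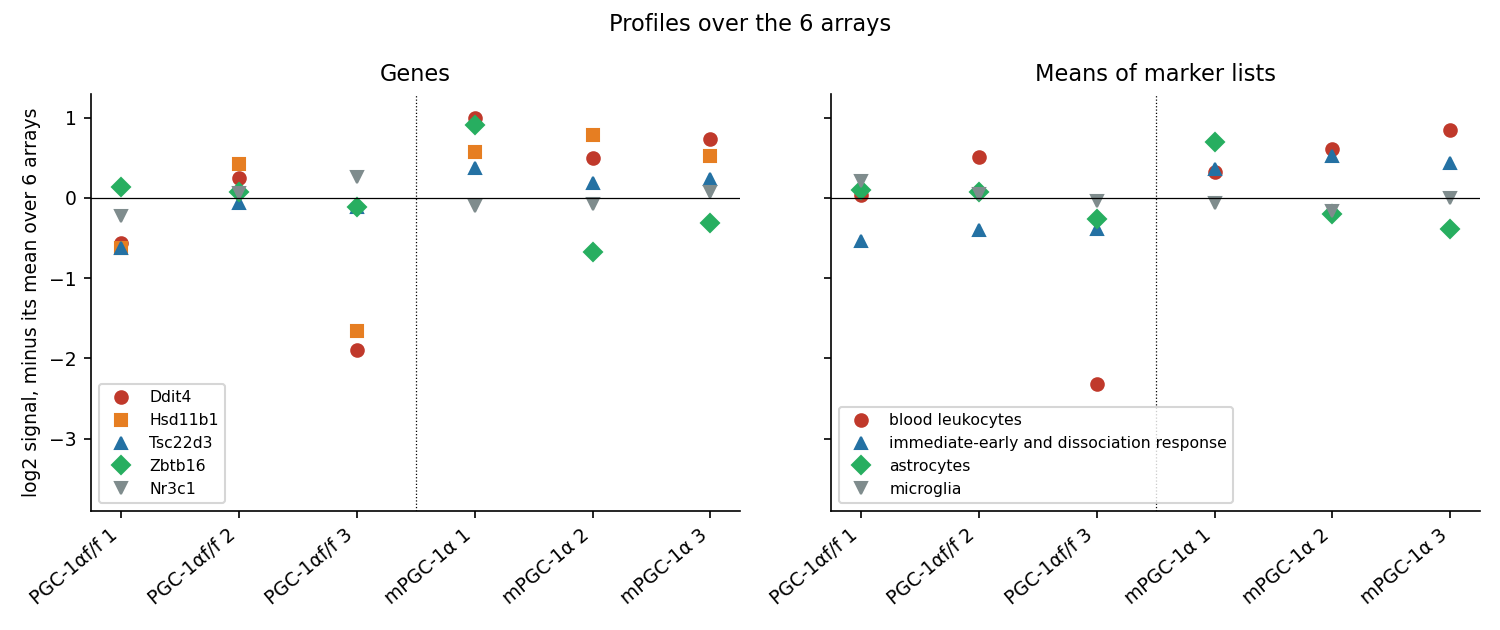
The left panel plots, on each of the 6 arrays, the log2 signal of 5 genes minus its mean over the arrays, and the right panel the same for the mean of 4 marker lists; the dotted line divides the groups. Ddit4, Hsd11b1 and the blood leukocyte mean are all lowest on PGC-1αf/f replicate 3, while Tsc22d3 is lowest on PGC-1αf/f replicate 1 at the brighter probe plotted (its second probe was lowest, at 0.63, on PGC-1αf/f replicate 3), and Zbtb16 and the astrocyte mean are highest on mPGC-1α replicate 1.

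Other genes of the pathway were taken as lists. Of 10 chaperones and cochaperones of the receptor complex, 8 were higher and 2 lower, with a median of 0.13 that stayed above 0 in each of 18 alternatives but was 0.0019 after a median shift. Hsp90aa1, the inducible HSP90, was higher by 0.55 (SE 0.14, unadjusted p = 0.00876, limma adjusted p = 0.192), at 2.76 and 2.78 on the 2 PGC-1αf/f arrays with values and 3.26, 3.31 and 3.40 on the mPGC-1α arrays. Stip1, Bag1 and Fkbp4 differed by 0.23, 0.19 and 0.17, none with an unadjusted p under 0.05, and the groups did not overlap for Bag1 and Fkbp4, although Fkbp4 had probes of both signs. Of 11 tested coregulators that bind nuclear receptors, 4 were higher and 7 lower, and the median of -0.04 changed sign in 1 of 18 alternatives. Nrip1, a corepressor, and Carm1, an arginine methyltransferase, lay apart, with differences of -0.26 and -0.22 and limma adjusted p = 0.384 and 0.4. The groups overlapped at the other tested Carm1 probe, which differed by -0.06. Ncoa2 differed by -0.47 (SE 0.30) and Ncoa3, whose probes differed in sign, by -0.14. Among 4 tested genes of steroid metabolism and efflux, 2 were higher and 2 lower, with a median of -0.02 that changed sign in 4 of 18 alternatives. Abcb1b, an efflux pump for corticosteroids, lay apart, with a difference of -0.44 (SE 0.23, limma adjusted p = 0.368), while Abcb1a differed by 0.01 and Srd5a1 by 0.10.

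Among 23 tested genes of 25 that glucocorticoids are otherwise known to induce, 16 were higher and 7 lower, with a median of 0.35 that ranged from 0.18 to 0.52 over the alternatives. Dusp1, a phosphatase that inactivates MAP kinases, was the only one past the threshold. It gave 0.60, 0.89 and 0.82 on the control arrays, against 2.80, 3.02 and 3.20 on the mPGC-1α ones, and rose by 2.24, or 4.71-fold (SE 0.16, limma adjusted p = 0.0122). With an array left out it was 2.14 to 2.34 and lost the call without PGC-1αf/f replicate 2 (limma adjusted p = 0.0754), mPGC-1α replicate 2 (0.125) or mPGC-1α replicate 3 (0.0896). Dusp1 is also an immediate-early gene, and the mean of the immediate-early list, which does not hold it, was higher on every mPGC-1α array, as given above. The part of that response in the Dusp1 difference was not tested. Unadjusted p-values under 0.05 were found for 6 higher genes and 1 lower gene, but for 3 and 0 without PGC-1αf/f replicate 3 and for 2 and 0 without mPGC-1α replicate 3. Nfkbia, the inhibitor of NF-κB, was higher by 0.75 (limma adjusted p = 0.193) and Irs2 by 0.35 (limma adjusted p = 0.272), both with groups apart. Per1, a clock gene with a known response element, was higher by 0.74 (limma adjusted p = 0.246), with 1 mPGC-1α array, at 2.19, below the highest control at 2.25. Foxo1 differed by -0.37, with the mPGC-1α arrays apart below the controls (limma adjusted p = 0.263). The fourth gene that lay wholly higher was Il1r2, the decoy receptor for interleukin 1, named here after its values were seen: it gave 0.22, 1.43 and -3.54 against 1.87, 2.09 and 2.50, so that PGC-1αf/f replicate 3 was again the lowest array.

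Genes that glucocorticoids are known to repress were measured beside them. Of 16 inflammatory genes on that list 13 were tested, and 10 of these were well above background on all 6 arrays. Among the 10, 7 were higher and 3 lower, 7 had an unadjusted p under 0.05, all higher, and none passed the threshold. The groups did not overlap for 6 of the 9 with complete values, and the median difference was 0.95. Cxcl2, Mmp9 and Nos2 entered the test only because they were well above background on all mPGC-1α arrays, and all 3 were higher. With them the count at an unadjusted p under 0.05 was 9 of 13 and the median 1.15, with 0.72 to 1.51 over the alternatives, and that count was 9 without PGC-1αf/f replicate 3 and 6 without mPGC-1α replicate 3. Il1b gave -0.02, 1.60 and -0.50 against 2.16, 1.90 and 3.14, a difference of 2.04 (SE 0.57, limma adjusted p = 0.194). Ccl3 and Ccl4, chemokines of myeloid cells, were higher by 0.72 and 1.15 (limma adjusted p = 0.202 and 0.206). Cxcl2 exceeded background clearly on 1 control array alone and gave -5.43, -2.97 and -6.48 against -1.59, -2.02 and -0.14. Its fitted difference enters the counts and median over 13 genes and the plot of pathway lists, and is not given by itself. Genes listed as induced and genes listed as repressed by glucocorticoids thus both had medians above that of all genes, 0.02.

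**Figure D4:**
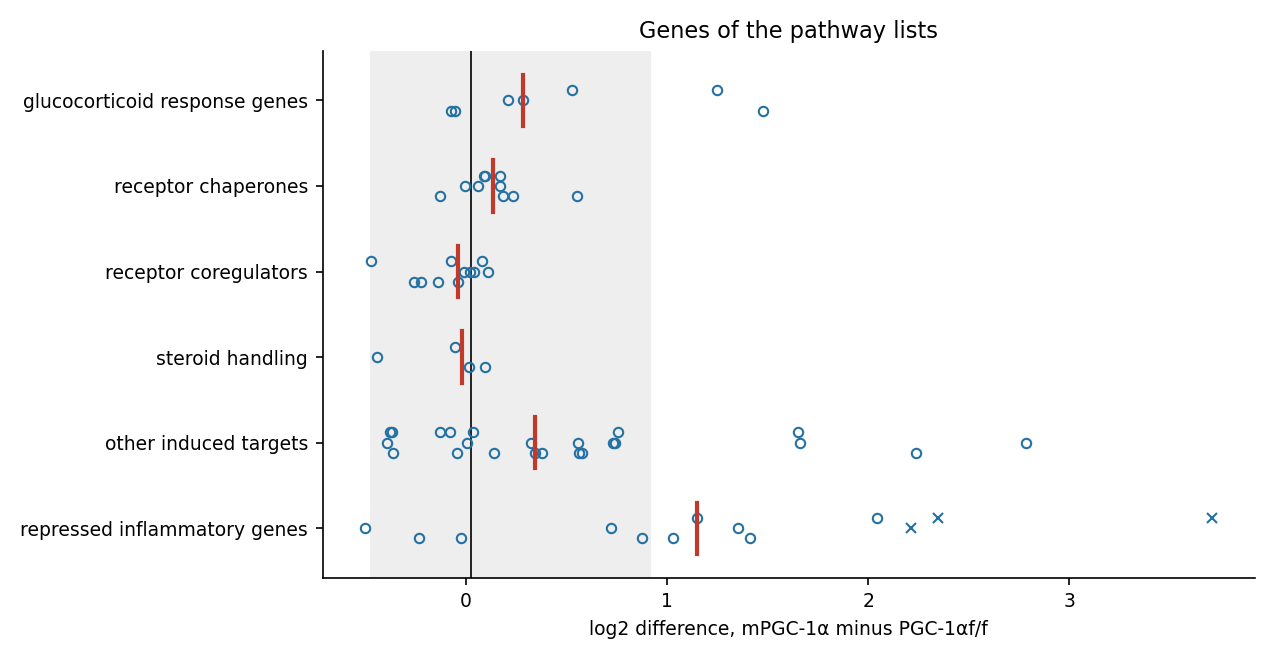
Each circle is the log2 difference, mPGC-1α minus PGC-1αf/f, of 1 gene at its brightest tested probe, crosses are Cxcl2, Mmp9 and Nos2, which some control arrays did not measure well above background, red bars are list medians, the black line is the median of all tested genes (0.02) and the grey band holds their 5th to 95th percentile (-0.47 to 0.91). Vertical offsets within a list carry no meaning. Ddit4 and Hsd11b1 lie to the right of the band, as do circles of both the induced and the repressed list.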

How the data were processed

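The authors hybridized Cy5-labelled product from total RNA to Agilent mouse 1-colour arrays (3 PGC-1αf/f, 3 mPGC-1α). The deposited scanner files hold the processed intensity of each spot from Feature Extraction 11.5.1.1, after background subtraction and spatial correction, and the deposited series table holds the same intensity without normalization between arrays. Columns of single arrays left unused numbered 0. Control spots and spots flagged as outliers were left out, the 75th percentile of an array was subtracted from its log2 intensities, and spots of a probe were averaged. A probe was tested if at least 0.5 of its spots were well above background on every array of at least 1 group (25333 of 56605 probes, 11 of 13 member probes). Names came from matching accessions to a RefSeq table of GRCm38.p6 (33767 probes with 1 symbol). The brightest tested probe with complete values stood for a gene, or the brightest where none was complete.

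All tested probes were fitted in R 4.3.3 with limma 3.58.1 (two-sided tests from eBayes) and adjusted together by Benjamini-Hochberg. The number of arrays limits the precision. On simulated data of 22997 probes, 50% of probes with a log2 change of 1 and 80% with 2 were recovered, with 9 false calls. Whether these rates hold for the real arrays was not tested. On the real arrays Ddit4 and Hsd11b1 differed by 1.48 and 1.25 and did not pass. The members and lists were chosen with earlier results of these data known. Named genes were every member, list genes past the threshold and up to 4 others per list with the lowest p, and the 3 genes most like each member. Alternatives were other normalizations, background correction, filters, blocks, weights and probe rules, and leaving out each array. The same replicate number was not taken to pair samples, since replicate numbers are not known to mark paired mice. The deviations of same-numbered arrays correlated by 0.139, 0.127 and 0.0187. The arrays of replicates 1 and 2 also shared a slide column between groups, and those of replicate 3 did not. These correlations therefore cannot separate pairing from slide column. Figures used numpy 2.4.6, pandas 2.3.3 and matplotlib 3.10.9 under Python 3.11.15; data.table was version 1.17.8.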

Additional observations from a re-analysis of the deposited data

How the results depend on the processing

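Tsc22d3, Ddit4 and Hsd11b1 were higher in mPGC-1α microglia in each of 18 alternatives, by 0.35 to 0.795, 0.764 to 1.97 and 0.67 to 1.77. Sgk1 was higher in 17 of 17, by 0.0512 to 0.364, with a lowest limma adjusted p of 0.408. Within slide column 1, the only column with a Sgk1 value in each group, its difference was -0.0043. The count of members past the threshold was 1 (Ddit4, 1.44) in the deposited table without normalization and 0 in the other 17. In that table Ddit4, Hsd11b1 and Tsc22d3 all had an SE of 0.428, so the spread of Ddit4 itself was not used. The count at an unadjusted p under 0.05 was 1 with array weights and 0 to 3 when an array was left out, 0 without mPGC-1α replicate 3. It was 2 after a median shift and 2 without normalization, where Tsc22d3 had limma p-values of 0.128 and 0.248 at its brighter probe. Fkbp5 was -0.264 without normalization, -0.0327 after a median shift and -0.235 to 0.804 when an array was left out. Leaving out an array gave -0.200 to 0.0415 for Nr3c1 and -0.522 to 0.266 for Zbtb16. The median shift moved the median of all probes from -0.0026 to -0.139, and list medians to 0.0019 for chaperones and -0.170 for coregulators. The count of all probes past the threshold, 20, was 7 with 1 probe per gene, 754 with array weights, 456 without normalization, 4 with a filter on all 6 arrays, 11 with a median shift, 9 without a filter, 11 with normexp, 11 with quantile normalization, 138 with slide column as a random block and 0 to 24 when an array was left out. With the replicate block it was 0, and replicate numbers are not known to mark paired mice. Fkbp5 had no value in 3 alternatives and Sgk1 in 1, for missing spots. The causes were not tested. Signal over background limits Nr3c2.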
